A study of Mus musculus with 14 samples.

Results

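The genes that build ribosomes, start translation and form the respiratory chain were examined for listed sites of NKX2.2 in a mouse alpha-cell line. NKX2.2 is a homeodomain transcription factor of the pancreatic islet, and KLF4 is a zinc-finger transcription factor. Genomic occupancy of NKX2.2 had been profiled by chromatin immunoprecipitation and sequencing (ChIP-seq), and the table analysed here lists 6758 sites, each a run of neighbouring windows of the genome that the program csaw joined. Each site was given to its nearest protein-coding gene. Sites were kept where that gene's symbol was Rpl, Rps, Mrpl, Mrps, Eif, Cox, Ndufa, Ndufb, Ndufc, Ndufs or Ndufv followed by a digit, and Rps6k genes were left out. This gave 99 of the 6758 sites, nearest to 82 of the 288 genes with such symbols.

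All samples were alphaTC6 cells, an established line of glucagon-producing cells with wild-type genotype in the labels. The compared groups were 3 NKX2.2 ChIP samples from cells transfected for 48 h with small interfering RNA (siRNA) against Klf4, and 4 from cells transfected with scrambled siRNA. Their 3 and 4 input samples, chromatin not precipitated, have no values in the table and were not analysed here. Enrichment of a site over input was therefore not checked, and a listed site is not shown to be bound. The table is the authors' deposited comparison and has no column for any sample, so no value per culture, depth or replicate spread can be given, and neither the Klf4 knockdown nor the alpha-cell identity of the cultures can be checked from it. For each site the authors' csaw test gives a representative window's log2 fold change, a p-value and a false discovery rate (FDR) over all sites, and every fold change, p and FDR below is one of these unless said to be recomputed. Which group forms the numerator is not stated. A positive or negative value is therefore reported only as listed, and is not read as more or less binding after the knockdown.

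Cytosolic ribosomal proteins (Rpl for the large subunit, Rps for the small) assemble with ribosomal RNA into the ribosomes that translate nuclear-encoded messages. Their mitochondrial counterparts (Mrpl, Mrps) form the ribosome that makes the few proteins encoded in mitochondrial DNA, most of which are respiratory chain subunits. Initiation factors (Eif) bring the small subunit, the initiator tRNA and the message together. Nduf proteins belong to complex I, which takes electrons from NADH, and Cox proteins to complex IV, which passes them to oxygen. Such genes are expressed in nearly all cells from compact, often GC-rich promoters, and in islet cells the respiratory chain also supplies the ATP that links fuel supply to hormone secretion.

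Promoter DNA of 7 of these genes is shown first, because their sites lay at a transcription start and the values of those sites recur below. Mrpl32 and Ndufa12 had the lowest fold changes among the genes with at least 100 upstream bases to show, 50 or more of them inside the site, and Rpl22l1 and Cox7c the highest. Mrps33 is the gene with the 1 site that passed the FDR threshold. Rpl37a and Rps21 were added for the NK2 and ETS letters described after the sequences. The stretches come from RefSeq (GRCm38.p6), run 5′ to 3′ on the strand of the gene, end at the base before its annotated start, and are limited to DNA outside the bounds of every annotated gene. Capitals mark the bases that the deposited site covers. Positions are chr13:14613038-14613241 on the minus strand for Mrpl32, chr10:94198785-94199034 on the plus strand for Ndufa12, chr6:39810937-39811186 on the minus strand for Mrps33 and chr1:72711010-72711259 on the plus strand for Rpl37a. They are chr2:180257129-180257378 on the plus strand for Rps21, chr13:86046796-86047045 on the minus strand for Cox7c and chr3:28805352-28805507 on the plus strand for Rpl22l1.
Mrpl32: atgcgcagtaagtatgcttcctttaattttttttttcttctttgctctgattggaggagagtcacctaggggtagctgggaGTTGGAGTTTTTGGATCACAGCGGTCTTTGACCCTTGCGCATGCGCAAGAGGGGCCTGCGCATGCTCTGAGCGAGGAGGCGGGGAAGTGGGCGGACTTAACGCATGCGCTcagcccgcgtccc
Ndufa12: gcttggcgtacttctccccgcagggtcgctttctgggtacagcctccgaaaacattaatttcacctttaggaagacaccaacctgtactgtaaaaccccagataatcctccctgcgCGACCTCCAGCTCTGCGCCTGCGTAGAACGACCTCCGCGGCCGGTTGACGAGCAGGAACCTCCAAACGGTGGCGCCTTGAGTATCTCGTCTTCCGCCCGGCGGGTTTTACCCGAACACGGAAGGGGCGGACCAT
Mrps33: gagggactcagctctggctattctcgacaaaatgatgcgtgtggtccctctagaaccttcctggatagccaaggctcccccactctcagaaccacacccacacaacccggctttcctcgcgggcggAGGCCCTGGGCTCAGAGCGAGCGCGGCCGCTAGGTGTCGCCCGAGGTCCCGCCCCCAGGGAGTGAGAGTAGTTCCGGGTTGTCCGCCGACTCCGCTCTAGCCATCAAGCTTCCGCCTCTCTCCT
Rpl37a: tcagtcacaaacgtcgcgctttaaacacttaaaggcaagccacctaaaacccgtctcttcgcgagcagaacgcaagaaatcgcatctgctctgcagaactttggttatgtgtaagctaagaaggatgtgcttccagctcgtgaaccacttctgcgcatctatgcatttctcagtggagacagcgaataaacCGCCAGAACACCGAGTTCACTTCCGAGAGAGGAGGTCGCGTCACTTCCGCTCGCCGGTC
Rps21: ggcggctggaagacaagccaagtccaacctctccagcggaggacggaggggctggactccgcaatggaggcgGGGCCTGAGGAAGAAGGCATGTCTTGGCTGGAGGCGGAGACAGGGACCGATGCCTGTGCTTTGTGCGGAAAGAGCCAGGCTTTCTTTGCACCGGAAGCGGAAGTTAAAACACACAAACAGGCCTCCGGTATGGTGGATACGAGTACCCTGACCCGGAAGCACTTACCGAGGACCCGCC
Cox7c: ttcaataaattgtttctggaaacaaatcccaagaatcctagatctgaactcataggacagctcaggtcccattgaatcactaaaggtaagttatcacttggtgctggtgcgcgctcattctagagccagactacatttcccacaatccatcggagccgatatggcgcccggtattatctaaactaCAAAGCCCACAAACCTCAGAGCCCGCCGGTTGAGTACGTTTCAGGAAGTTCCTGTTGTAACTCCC
Rpl22l1: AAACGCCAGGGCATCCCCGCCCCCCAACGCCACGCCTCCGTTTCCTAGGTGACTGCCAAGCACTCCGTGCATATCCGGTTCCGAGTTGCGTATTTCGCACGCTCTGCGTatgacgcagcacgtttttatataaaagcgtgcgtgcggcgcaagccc

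In Mrpl32, which encodes a large-subunit protein of the mitochondrial ribosome, the site covered 110 of the 204 bases shown. The motif of NRF1, a regulator of respiratory genes, begins 87 bases before the start and lies in the capitals, as do the NK2 core AAGTG at 39 bases and a GC box, GGGCGG, at 35. The Ndufa12 stretch held 2 GC boxes, beginning 42 and 11 bases before the start, and no AAGTG on either strand. In Mrps33 the letters GGGNGTGG of KLF and SP factors, here on the opposite strand, begin 159 bases before the start, in the lower-case part that the site did not cover. Rpl37a held 4 NK2 cores, all on the opposite strand, at 225, 105, 42 and 18 bases, of which the last 2 lie in the capitals. Rps21 held the ETS letters CCGGAAG at 88 and 26 bases and an NK2 core at 19 bases, all inside the site. Cox7c held an NK2 core at 156 bases, outside the site, and Rpl22l1 a GC box at 140 bases, inside it. These matches describe the letters and are not evidence of a bound factor.

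Over all genes of these families, RefSeq promoter windows of 300 bases (250 before the start and 50 from it) were available for 234 of the 288, in 268 windows. Each motif was searched on both strands, and the NK2 core is contained in the longer NK2 motif. The ETS letters CCGGAAG occurred in 31.0% of the 268 windows and in 11.6% of all 21263 windows of protein-coding genes. The NRF1 motif occurred in 13.8% against 6.4%, and the YY1 letters CAANATGGC in 13.4% against 2.8%. For the GC box the shares were 56.0% and 46.2%. By contrast the letters named for the studied factors were about as frequent as elsewhere. AAGTG was present in 45.1% of the windows against 45.2% of all, TNAAGTG in 8.2% against 10.8%, and GGGNGTGG in 18.7% against 19.4%.

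The genes that carried a site at a known start were a smaller set, 45 genes with 51 windows. All windows of each gene were counted, including any at another start of that gene. Of these windows, 54.9% held AAGTG and 15.7% (8 windows) held TNAAGTG, while 47.0% and 9.0% did among the 1639 windows of other genes with a site at the start. GGGNGTGG was in 19.6% and 20.4% respectively, and CCGGAAG in 31.4% and 24.1%. The GC box was in 52.9% and 63.0%, the NRF1 motif in 19.6% and 11.2%, and the YY1 letters in 5.9% (3 windows) and 4.8%. With 8 windows behind the TNAAGTG share, the difference rests on few promoters. Windows of 1 gene can overlap, so these shares were not tested.

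The sites of translation and respiratory chain genes lay mostly at gene ends. Of the 99, 60 lay within 1 kb of an end of their gene, or 60.6% (95% Wilson interval 50.8 to 69.7%), against 1718 of the 6627 sites of other genes on assembled chromosomes, or 25.9% (24.9 to 27.0%). Of the remaining 39, 18 lay inside the gene and 21 outside it. These genes are short, with a median of 5798 bp between their ends against 17373 bp for other protein-coding genes. The part of gene length in the share at ends was not tested. Of the families with the shortest genes, Rps (median 3107 bp) had 4 of 8 sites at ends and Rpl (3164 bp) 17 of 20. Eif, with the longest genes (18496.5 bp), had 8 of 19. Counted over genes, 59 of 288 (20.5%) had a site within 1 kb of an end, against 1689 of 21612 others (7.82%). The others are all remaining protein-coding genes, expressed in these cells or not. The sets were not matched for expression, and its part in this difference was not tested. Any assigned site, at whatever distance, was found for 28.5% of these genes and 20.6% of the others.

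The share of genes with a site at an end differed among families. It was highest for Rpl, at 16 of 53 genes (30.2%), followed by Nduf with 10 of 40 (25%) and Mrps with 7 of 29 (24.1%). Cox had 5 of 27 (18.5%), Mrpl 9 of 49 (18.4%), Eif 8 of 56 (14.3%) and Rps 4 of 34 (11.8%). With so few genes per family the order is a description of this table.

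**Figure D1:**
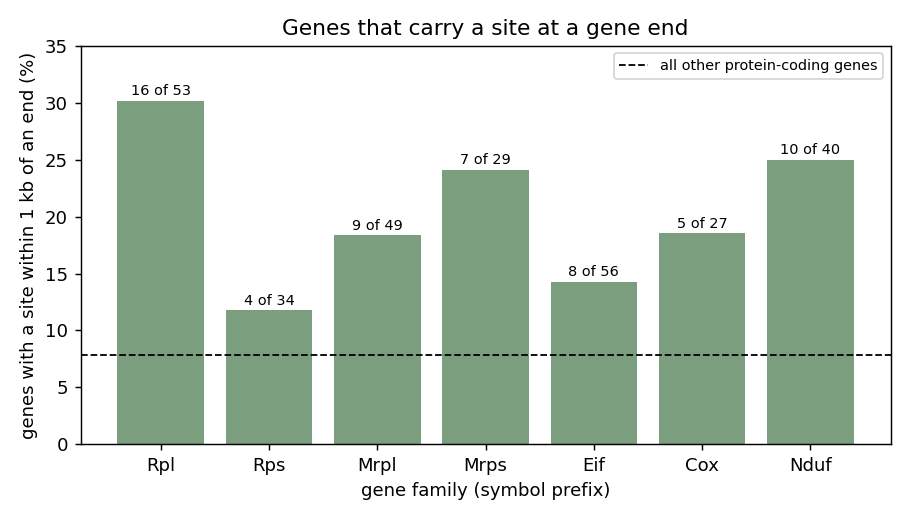
Share of the genes in each family (percent, bars from 0) that had a site within 1 kb of either gene end, with the counts above the bars; the dashed line is the share among all other protein-coding genes, 7.82%. All 7 families sit above the line, from 11.8% for Rps to 30.2% for Rpl. The other genes were not matched for expression.

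Most of these gene-end sites were promoter sites. The start was known from the RefSeq windows for 47 of the 60, and 45 of those 47 (95.7%) lay nearer to a start than to the other end of the gene. The exceptions were Rpl23 and 1 site of Rpl37a. The start itself lay inside 21 of the 45 sites (46.7%), and 37 (82.2%) were within 100 bp of it. For the 1336 start sites of other genes the shares were 35.1% and 67.4%. The midpoint was upstream of the start in 32 of the 45 (71.1%) and in 73.5% of the others. Gene-end sites of both sets were compact, with a median width of 110 bp. A second protein-coding gene lay within 1 kb of 13 of the 60 sites (21.7%), close to the 22.4% among other genes' end sites. Among these 13 were Mrpl32 with Psma2, Mrpl44 with Wdfy1, Ndufa5 with Asb15 and Rpl4 with Zwilch. The second gene was counted by its bounds, not its start, and the table cannot say which gene the binding belongs to.

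Differential occupancy was rare. At an FDR of 0.05 or lower, 1 of the 99 sites passed in the authors' deposited table, where 1.36% of all 6758 sites did. Before adjustment, 10 of the 99 had a p under 0.05 (10.1%), against 11.2% of all sites. Split by sign, 5 of the 99 had such a p with a negative log2 fold change (3.68% of all sites did) and 5 with a positive one (7.55% of all sites). The sites of these genes thus passed the unadjusted threshold about as often as others, and a count of 1 at the FDR is too small to read.

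The 10 sites with an unadjusted p under 0.05 divided by position. Within 1 kb of a gene end there were 6 of 60 (10.0%; 7.59% of all such sites), of which 5 were negative. Farther away there were 4 of 39 (10.3%; 12.1% of all such sites), and all 4 were positive. The same lean was present over the whole table, in which 79 of the 135 gene-end sites with such a p were negative and 454 of the 601 distal ones were positive. The 5 negative gene-end sites were at Mrps36, Mrpl32, Cox18, Ndufa12 and Ndufa5, and the positive one at Rps26. By symbol the 5 belong to mitochondrial ribosome or respiratory chain families, which hold 16 and 15 of the 60 gene-end sites. This was noticed after the values were seen. The grouping is by symbol only, since the products of Mrps36 and Cox18 are not subunits of the ribosome or the chain, as described below.

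The fold changes of gene-end sites were centred near 0, close to those of other genes. The median over the 60 was -0.03 (95% interval from order statistics -0.25 to 0.03), with 35 negative (58.3%) and a range from -0.77 to 0.87. For the 1718 gene-end sites of other genes the median was -0.05 and 58.4% were negative. The quartiles ran from -0.38 to 0.17 in the first set and from -0.33 to 0.17 in the second.

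At the 39 sites farther from the ends, the median was 0.03 (-0.15 to 0.34), 18 were negative (46.2%), and values ran from -0.62 to 1.27. With the best window of each site in place of the representative one, this median was -0.06, on the other side of 0, and that of gene-end sites -0.14. Among 4909 distal sites of other genes the median was 0.10 and 37.3% were negative. The difference of medians between gene-end and distal sites was therefore -0.06 for these genes and -0.15 for the others, in the same direction. These differences depend on the limit: at 3 kb they were -0.14 and -0.13. The order-statistic intervals of the 2 medians overlap in these genes. A larger share of the distal sites exceeded 0.5 in absolute value, 14 of 39 (35.9%) against 12 of 60 at the ends (20.0%). In other genes the shares were 22.1% and 18.1%.

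The distal sites themselves were of 2 kinds. The 18 inside a gene had a median of 0.17, with 13 positive, while the 21 outside had a median of -0.15, with 8 positive. In other genes the medians of inside and outside sites were 0.09 and 0.11. The intervals of the medians, -0.06 to 0.52 inside and -0.31 to 0.37 outside, overlap, and the outside set includes sites very far from any gene. Those assigned to Mrpl39 and Ndufa4 lay 1455 and 1210 kb away, so the gene name says little about them. Inside the genes, 4 sites counted as distal lay within 100 bp of an annotated start that is not the gene's outer end, at Cox20, Cox7a2, Mrpl18 and Rps27l.

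**Figure D2:**
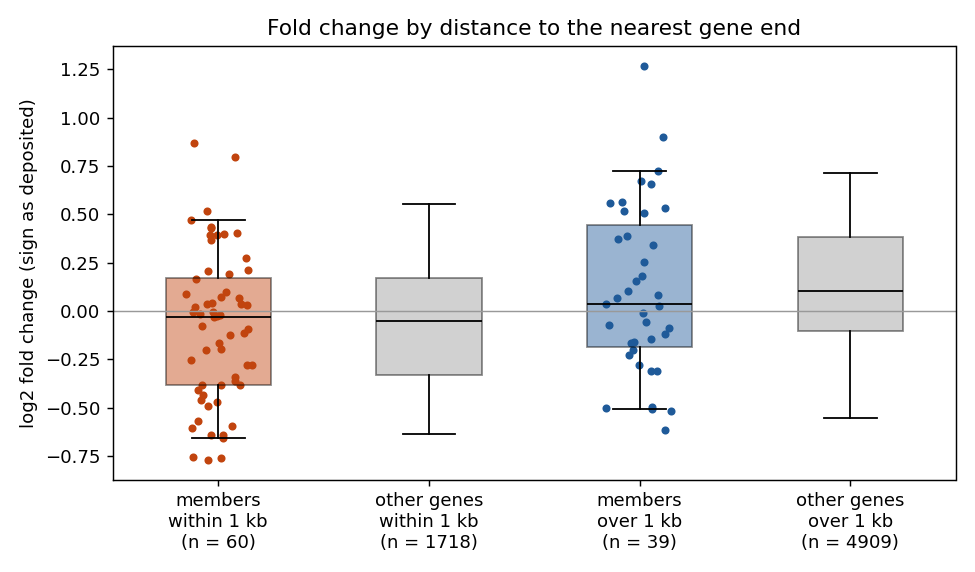
Log2 fold change (as listed, numerator not stated) of sites within 1 kb and over 1 kb from the ends of their gene, for translation and respiratory chain genes (members, points shown) and for other genes. Boxes span the quartiles, lines mark medians of -0.03, -0.05, 0.03 and 0.10 from left to right, and whiskers the 5th to 95th percentile.

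Cytosolic ribosomal protein genes had 28 sites, with log2 fold changes from -0.62 to 0.87. The 21 at a gene end had a median of -0.01 and quartiles of -0.28 and 0.07, and 2 exceeded 0.5 in absolute value, as did 4 of the 7 distal ones. None of the 20 Rpl sites had a p under 0.05 (11.2% of all sites did), a count too small to set Rpl apart. Rpl5 and Rpl7, whose products sit in the large subunit, were listed at -0.00 and -0.01, Rpl36 at 0.02 and Rpl13a at 0.04. The lowest gene-end values in the Rpl family were at Rpl32 (-0.46), Rpl37a (-0.44) and Rpl23 (-0.41), and the highest at Rpl22l1 (0.52), a paralog of Rpl22. Both Rpl extremes were far from a gene. The lowest in the authors' deposited table, -0.62 (p = 0.212), was 58829 bp from Rpl34-ps1, a locus the gene table counts as protein-coding. The highest was 128998 bp from Rpl14, at 0.65 (p = 0.0691) in the authors' deposited table. Rpl38 had a promoter site at -0.02 and another, far upstream, at -0.51.

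Among Rps genes, which encode the small subunit, 8 sites were listed and 1 had a p under 0.05. It lay 295 bp upstream of the start of Rps26, on chromosome 10 from 128626801 to 128626860, with a log2 fold change of 0.87, a p of 0.0261 and an FDR of 0.335 in the authors' deposited table. Of its 2 windows 1 was counted as up. The gene-end sites of Rps7 and Rps21 were listed at 0.07 and -0.28, and neither had a p under 0.05. The lowest Rps value, -0.31, belonged to a site inside Rps27l, a paralog of Rps27, 1377 bp from the gene's outer end and over an internal start. Rps24 had 2 sites, 37441 and 90141 bp away, at -0.01 and 0.50.

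Initiation factor genes had the highest median of the 4 groups, 0.18 over 19 sites, with a 95% interval (-0.16 to 0.43) that includes 0. Several of the 19 share a gene: Eif4g2 had 1 end site and 3 distal ones, and Eif2ak3 had 1 and 2. The 8 sites at gene ends also had a median of 0.18. The 8 end sites ranged from -0.57 at Eif3b, a subunit of the eIF3 complex that holds the small ribosomal subunit, to 0.43 at Eif6, which keeps the ribosomal subunits apart. Eif4e2, a cap-binding protein, was at 0.37 and Eif4g2, a scaffold of the eIF4G family, at 0.39. Eif5b, which joins the subunits, was at 0.28 and Eif2b2, part of the exchange factor for eIF2, at -0.02. None of these end sites had a p under 0.05.

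Both sites assigned to Eif symbols with a p under 0.05 were distal. One lay 115921 bp from Eif4g2, on chromosome 7 from 111198951 to 111199260. All 7 of its windows were counted as up, with a log2 fold change of 0.90, a p of 0.00631 and an FDR of 0.162 in the authors' deposited table. Farther out, 123121 and 179871 bp from the gene, sites were listed at 0.56 and -0.15. The other, a single window inside Eif2ak3 on chromosome 6 from 70872351 to 70872360, was listed at 0.72 (p = 0.0296, FDR 0.351) in the authors' deposited table. Eif2ak3 encodes PERK, the endoplasmic reticulum stress kinase that phosphorylates eIF2, and so is a regulator of initiation and not an initiation factor itself. Its promoter site, with 8 windows one of the widest among these genes, was at 0.08.

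Mitochondrial ribosomal protein genes held 28 sites and the widest range. The 16 at gene ends had a median of -0.17, with 10 negative (62.5%). The 12 distal ones had a median of 0.25, with 9 positive and 3 negative. Sites of other genes leaned the same way, with 58.4% of end sites and 37.3% of distal sites negative. The 95% Wilson intervals here, 38.6 to 81.5% and 8.89 to 53.2% negative, include those shares. With 16 and 12 sites they are too wide to say whether the lean differs from that of other genes. Mrps genes showed the split between end and distal sites most fully. Of their end sites 5 of 7 were negative (median -0.36), and of their distal sites 6 of 6 were positive (median 0.34). By the best window 4 of those 6 were positive, since an Mrps21 site and an Mrps27 site, both listed as mixed, were then at -0.16 and -0.11. The 95% intervals of those Mrps medians, -0.77 to 0.07 and 0.03 to 1.27, overlap, and 3 of the 6 distal sites lie in 1 gene, Mrps27.

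The 1 site that passed the FDR threshold belonged to Mrps33, which encodes a small-subunit protein of the mitochondrial ribosome. It lay inside the gene, 4297 bp from the nearer end, on chromosome 6 from 39806101 to 39806160. Both of its 2 windows were counted as up, and its log2 fold change was 1.27, with a p of 0.000624 and an FDR of 0.0474 in the authors' deposited table. Its FDR was 0.0502 by the best window and 0.0607 when recomputed without sites over 1 kb wide or on unplaced contigs, so the call holds only narrowly. The promoter site of the same gene, in the sequence above, was listed in the authors' deposited table at -0.38 (p = 0.145), on the other side of 0.

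At the promoter of Mrps36 the lowest gene-end value of all 60 was -0.77 (p = 0.0104, FDR 0.215) in the authors' deposited table. Mrps36 was named as a mitochondrial ribosomal protein, but its product is known as a subunit of the alpha-ketoglutarate dehydrogenase complex. The Mrpl32 site followed at -0.76 (p = 0.0180, FDR 0.277 in the authors' deposited table), and all 3 of its windows were counted as down. Other end sites of the Mrpl family ran up to 0.79 (p = 0.0614 in the authors' deposited table) at Mrpl44, a large-subunit protein. Inside Mrpl1 a site 10103 bp from the nearer end was at 0.52 (p = 0.00691, FDR 0.170 in the authors' deposited table), with 3 of 5 windows up. The neighbouring Mrpl1 sites were also positive, at 0.21 near the end and 0.34 farther in. Mrpl19 had a site at its end at 0.39 and another 18.2 kb away, the widest by windows of all 99 with 10, at -0.17 and with windows on both sides.

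Respiratory chain genes held 24 sites, 16 of them negative, with a median of -0.10. Their 15 gene-end sites had a median of -0.20 (95% interval -0.61 to 0.40), and 10 were negative (66.7%, against 58.4% in other genes). Of the 15, 5 exceeded 0.5 in absolute value (33.3%, against 18.1% in other genes), all 5 on the negative side. They were Cox18, Ndufa12, Ndufc2, Ndufa5 and Ndufs7. The table listed 0 of these 15 sites as mixed, meaning windows on both sides. Of the 60 gene-end sites of all these families, these 15 included, 18.3% were mixed, and 19.0% of those of other genes. Of the 15, 3 held a single window, which cannot be mixed, and the count is too small to set them apart.

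In complex I, the promoter sites of the accessory subunits Ndufa12 and Ndufa5 had p-values under 0.05. Ndufa12 was listed in the authors' deposited table at -0.66 (p = 0.0364, FDR 0.385), with 3 of 4 windows down. Ndufa5, on chromosome 6 from 24527551 to 24527710, was at -0.61 (p = 0.00647, FDR 0.164 in the authors' deposited table), with 2 of 4 windows down. The accessory subunit Ndufc2 was at -0.64 (p = 0.0885) in the authors' deposited table, and Ndufs7, a core subunit that carries an iron-sulfur cluster, at -0.60 (p = 0.0641). Others stood near 0, with Ndufa9 at -0.03, Ndufa10 at -0.08 and Ndufa2 at 0.10. On the positive side were Ndufv1, which binds NADH, at 0.47, a single window 46 bp from the gene, and Ndufa4 at 0.40, whose product is now counted with complex IV.

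In complex IV, the Cox18 site was at -0.75 (p = 0.0224, FDR 0.311 in the authors' deposited table), on chromosome 5 from 90224001 to 90224360 and 235 bp inside the gene's nearer end. Only 1 of its 8 windows was counted as down. Cox18 is an insertase needed to assemble the complex and not a subunit of it. Of the structural subunits, Cox5b was at -0.47, Cox6c at -0.20, Cox7c at 0.40 and Cox8a at 0.43, and none had a p under 0.05. Just outside the 1 kb limit, Cox20, an assembly factor, had a site 1006 bp from its end at -0.12. The nearest on the inner side was a second Rpl37a site, 853 bp from the end, at 0.03.

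**Figure D3:**
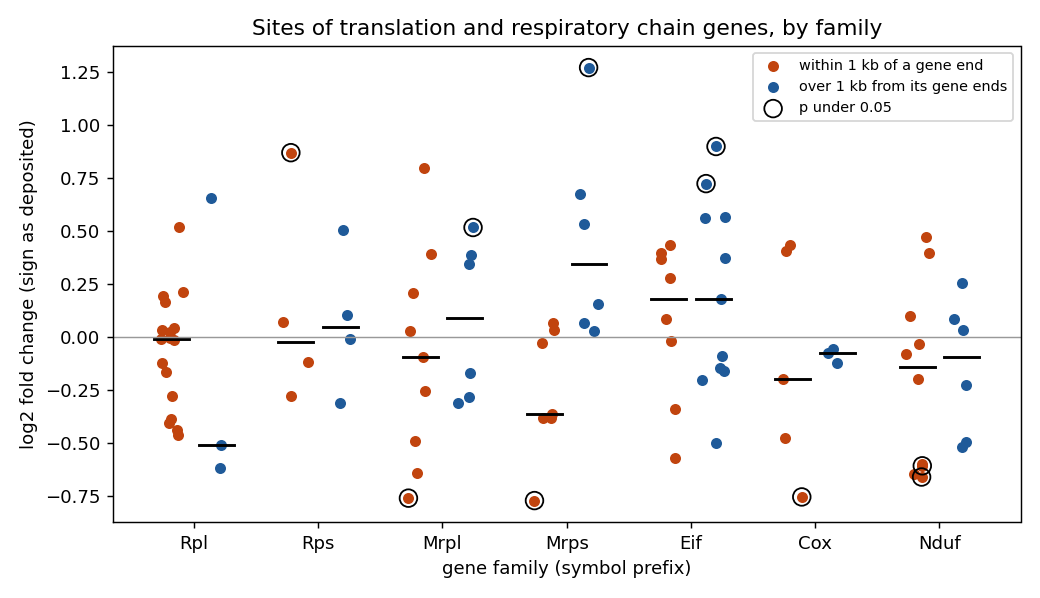
Log2 fold change (as listed) of each of the 99 sites by gene family, with sites within 1 kb of a gene end in rust and the others in blue; bars are medians and black rings mark p under 0.05. The ringed rust-coloured points below 0 are all in Mrpl, Mrps, Cox and Nduf, and the 4 ringed blue points are all above 0.

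**Figure D4:**
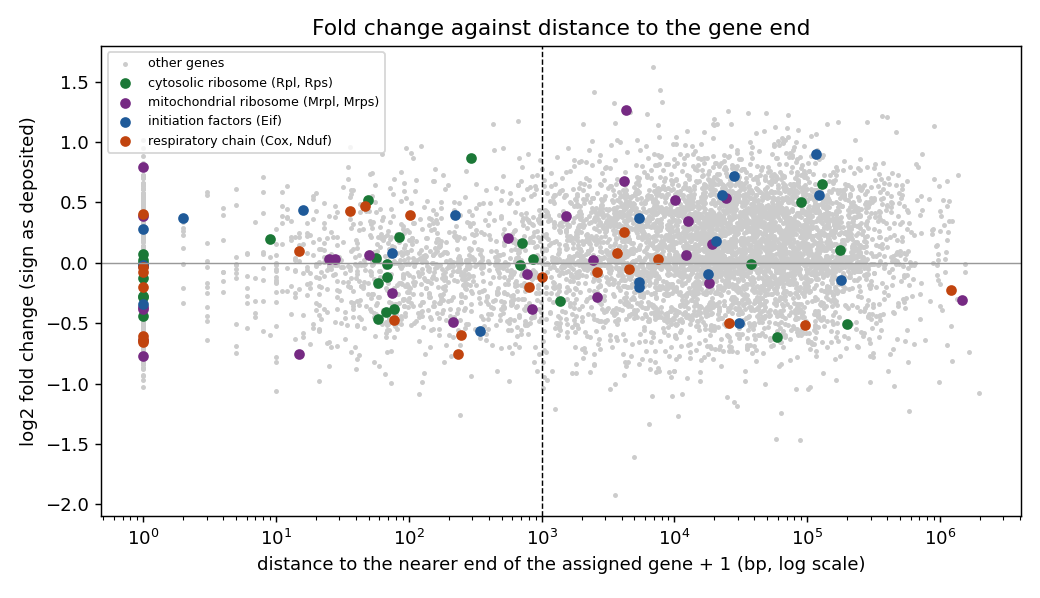
Log2 fold change (as listed) against distance from the site to the nearer end of its gene (bp + 1, log scale), for the 4 functional groups in colour and all other genes in grey; the dashed line marks 1 kb. The coloured points sit mostly left of the line and within the grey cloud, and the highest, at 1.27, is the Mrps33 site 4297 bp from the end.

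Genes with more than 1 site allowed positions to be set side by side under the same gene name. There were 11 such genes with 28 sites, and 8 of them had both an end site and a distal one. In 4 of the 8 the end site was lower than the median of the distal sites, namely Mrps33, Eif2ak3, Mrpl1 and Eif4g2. In the other 4 it was higher, namely Ndufa4, Mrpl19, Rpl38 and Ndufa10. The gap was -1.65 at Mrps33 and between -0.23 and 0.62 at the others. Over these 8 genes, then, no common direction was seen, but they mix 2 kinds of distal site. At Mrps33, Eif2ak3 and Mrpl1, all lower at the end, the distal sites lay inside the gene. At Eif4g2, Ndufa4, Mrpl19, Rpl38 and Ndufa10 they lay outside it, as far as 1210 kb at Ndufa4, and need not share a locus with the end site. Of these, only Eif4g2 was lower at the end. Mrps27, with 3 intragenic sites at 0.07, 0.16 and 0.53, and Mrpl1 had all their sites on the positive side, whereas Ndufa10 had sites at -0.52, 0.03 and -0.08.

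**Figure D5:**
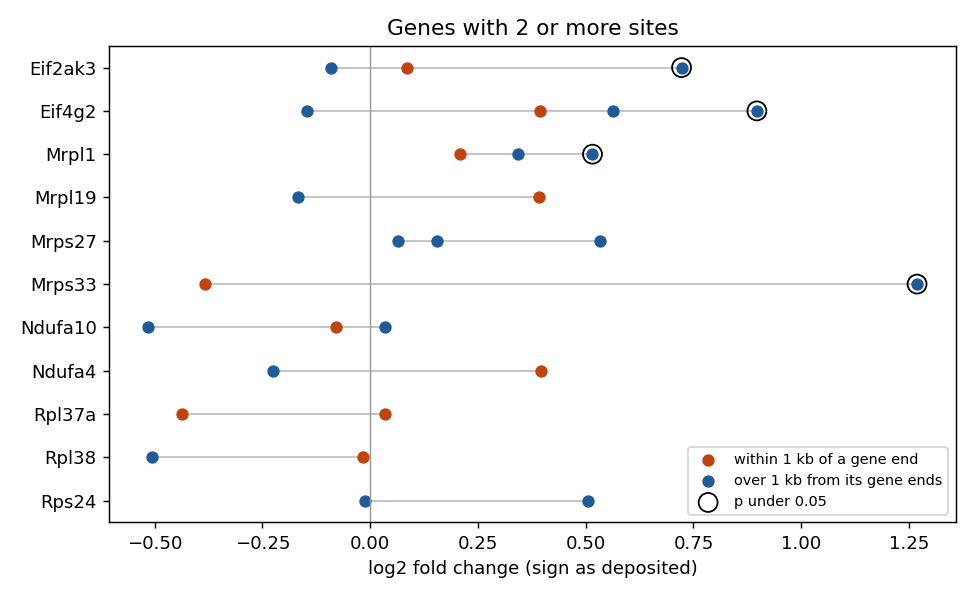
Log2 fold change (as listed) of every site of the 11 genes with 2 or more sites, joined by a grey line per gene; rust-coloured points lie within 1 kb of a gene end, blue points farther away, and rings mark p under 0.05. At Mrps33 the end site is at -0.38 and the distal site at 1.27, the widest gap of the 11.

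Other genes of the same pathways, whose symbols fall outside the rule, had 25 sites at 22 of 75 genes. They include elongation factors, complex II, III and V subunits and assembly factors. Again 15 of the 25 lay within 1 kb of a gene end (60.0%), where the median was -0.04 and 9 were negative. None reached an FDR of 0.05, the smallest being 0.369. A p under 0.05 was listed in the authors' deposited table for 2, both at gene ends and both negative (8% of the 25, against 11.2% of all sites), at Ndufaf5 (-0.67, p = 0.0347), a complex I assembly factor, and Atp5g2 (-0.51, p = 0.0326), which encodes a c subunit of ATP synthase. Tufm, the mitochondrial elongation factor, was at -0.50, while Sdhb of complex II was at 0.43 and Uqcrh of complex III at 0.33.

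The representative window and the best window of a site disagreed in sign at 18 of the 99 sites (18.2%), against 12.9% of other genes' sites. It was found at 7 of 28 sites each of cytosolic and mitochondrial ribosomal protein genes, at 3 of 19 of initiation factor genes and at 1 of 24 of respiratory chain genes. Rps7, for example, was at 0.07 by the representative and -0.28 by the best window, and the intragenic Eif4e3 site at 0.56 and -0.51.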

How the data were processed

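ChIP-seq for NKX2.2 had been done on 7 ChIP and 7 input samples. Per the labels' protocols, shearing was enzymatic. The submitters' processing notes name FastQC, Bowtie2, MACS2 and the build mm10, without roles, and the series' design text names csaw. The authors deposited a log2 fold change per site, with library normalization and numerator not given in the sources used here. The p-values and FDR were deposited by the authors per site; a Benjamini-Hochberg adjustment of the 6758 p-values returned the same FDR. Read counts were not part of the table, so depth is unknown and precision cannot be given per sample. Alternatives that need values per library were not run.

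Each site went to the closest among 21900 RefSeq protein-coding genes of GRCm38.p6 (the same coordinates as mm10), with distance 0 if overlapping and ties going to the closer gene end. The 32 sites on unplaced contigs were left out of assignment. Distance ran from the nearer edge of the site to the nearer gene end, whichever end it is, and exons and introns were not distinguished. Transcription starts came from RefSeq promoter windows. Sites are not replicates, so medians, shares and their 95% intervals (order statistics, Wilson) describe the table, cover counting error only, and were not tested between gene sets. The families, lists and tests were chosen with earlier results of these data known. Named sites were those at an FDR of 0.05, those with p under 0.05, the lowest and highest of each family, genes with 2 or more sites, those beside the 1 kb limit and the 3 with most windows; others are given as examples, chosen after their values were seen. Regulators and paralogs that the symbols take in were kept, and left out as an alternative. The assignment and adjustment were tested on simulated data. Computation used Python 3.11.15 with scipy 1.17.1, pandas 2.3.3 and numpy 2.4.6, and plots matplotlib 3.10.9.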

Additional observations from a re-analysis of the deposited data

How the results depend on the processing

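No paired analysis was possible because per-sample values and replicate numbers are not among the deposited columns, and leaving out replicates could not be done for the same reason. The 1 site at an FDR of 0.05, inside Mrps33, was lost with the best-window p-value, with the FDR recomputed without sites wider than 1 kb and contigs, and at an FDR of 0.01 (0 sites in each), and was the only one at an FDR of 0.1. In the second of these, fewer sites passed in the whole table, 59 of 6630. The 10 sites with p under 0.05 became 4 at 0.01, and 8 to 10 under the other settings. The median at gene ends ran from -0.14 to -0.02 over its 9 alternatives and stayed inside its 95% interval. The median of distal sites, 0.03, was -0.06 with best windows and from 0.01 to 0.08 otherwise, all inside its interval. The alternatives reuse most of the same sites, so staying inside these wide intervals is no independent support. The difference of medians was negative in all 9, from -0.14 to -0.03. The share of negative gene-end sites ran from 57.4% to 60.0%. Among settings chosen after the data were seen, the share of sites within 1 kb was 60.2% to 62.9%. With limits of 0.5 and 3 kb it was 53.5% and 66.7%, against 22.5% and 33.2% in other genes. Unknown depth limits every statement that a site did not differ.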
